A study of Rattus norvegicus with 12 samples.

Results

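The genes described here are a set of interferon-stimulated and antigen processing genes followed through RNA-seq of hepatic progenitor cells (HPCs) of the rat. HPCs are bipotent precursors of the liver's hepatocytes and of its bile duct epithelium. The set is a list of 48 gene symbols, chosen by name but with earlier results of these data known. Of these, 47 were in the table, 1 (Xaf1) was not found under that symbol, and 46 passed the filter on low values and were tested, among 11860 genes tested and 22384 lines with a symbol. Ifit1, with a mean of 0.471 FPKM (fragments scaled by transcript length and by the mapped fragments of the library), was the member left untested.

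Interferons are secreted proteins that bind cell surface receptors and act through JAK kinases. Type I and type III interferons activate a complex with STAT2 and IRF9 that binds a promoter element called the ISRE, and interferon gamma acts mainly at another element, called GAS. The induced genes include antiviral effectors, sensors of viral RNA, and the machinery that cuts proteins into peptides, carries them into the endoplasmic reticulum and loads them on MHC class I molecules. In the liver, this programme is known from the defence against hepatotropic viruses and from inflammation, in which TNFα and interferons share some targets.

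The 12 libraries fall into 6 groups of 2, all from gestation day 13.5: wild-type HPCs, HPCs labelled Tnfrsf1α-/- and HPCs labelled Tnfrsf1β-/-, each kept untreated or exposed for 1 hour to TNFα, the inflammatory cytokine tumour necrosis factor alpha. The receptor genes named by these labels encode TNFR1 and TNFR2, and the labels do not say how the knockouts were made or whether paired libraries stem from different cultures or animals. The p-values therefore speak only to the spread between libraries, and that spread may be technical. Values are levels on the log2(FPKM + 1) scale, differences are on that scale and understate the change of low genes, and sequencing depth is unknown. Tests were limma's, adjusted by Benjamini-Hochberg over the 11860 tested genes, and a gene was called at an adjusted p under 0.05. Ifit2 passed the filter on low values only through the 4 untreated knockout libraries, and Ifitm1 only through the 2 treated wild-type libraries. Their calls are no support for high levels in those groups, and the counts of called members below include both.

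Several facts of the libraries touch the results. Tnfrsf1a stood at 5.65 to 6.13 in the 4 libraries labelled Tnfrsf1α-/- and at 5.15 to 5.65 in wild type, and Tnfrsf1b was listed at 0 in the libraries labelled Tnfrsf1β-/- and also in untreated wild type. In treated wild type Tnfrsf1b was at 2.58 and 2.43, in untreated Tnfrsf1α-/- at 0.03 and 0, and in the 2 treated Tnfrsf1α-/- libraries at 0 and 4.09. The receptor genes therefore do not check the labels, and each direction drawn from these groups rests on them. The names Tnfrsf1α-/- and Tnfrsf1β-/- below mean the libraries that carry the label. The 4 untreated knockout libraries had total FPKM of 447554 to 472935, against 1071530 to 2085916 in the other 8. Whether these 4 libraries were quantified with the same annotation as the other 8 is not given in the sources used here, a limit on every comparison that includes them. The 2 treated libraries labelled Tnfrsf1α-/- disagreed: 13 of the 46 members differed by more than 2 log2 units between them, as did 10.4% of all tested genes, while no member did so in the other 5 groups. Hepatocyte markers summed to 5254 and 5402 FPKM in treated wild type and to 8.96 to 26.7 in the other 10 libraries. The mesenchymal marker median was 0.28 and 0.85 in treated wild type against 5.35 to 7.97 elsewhere. The mesenchymal sums overlapped, at 2236 and 3093 FPKM in treated wild type and 2551 to 6763 elsewhere. Of 8 tested mesenchymal markers, 6 were called lower and 2 higher in treated than in untreated wild type. The 4 untreated knockouts also stood apart in other marker lists. Their 12 progenitor and cholangiocyte markers summed to 373 to 500.1 FPKM, against 12010 to 54863 in the other 8 libraries, where most of the sum was Krt7, and Sox9 was at 0.02 to 0.31 against 5.21 to 9.67. Of these 12 markers, 9 were below 1 FPKM in each untreated wild-type and treated knockout library. In each untreated knockout library 10 were, and in each treated wild-type library 3. Endothelial markers summed to 4.18 to 4.50 FPKM in the 4 untreated knockouts and 0.13 to 0.99 elsewhere, with Kdr and Emcn at 0 in all 12 and most of the sum in the 4 from Tek. Of 12 leukocyte markers 11 were in the table, the defining markers Ptprc, Laptm5 and Tyrobp were at or near 0 in all libraries, and the summed level of 16.4 to 50.1 FPKM came mostly from Cd14. In bulk RNA, fewer cells of a type and less RNA per cell cannot be told apart, and the part of these differences in the results below was not tested.

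The promoters were searched for the elements through which interferons act, and matches are printed for members that the results below turn on, among them those of antigen presentation. RefSeq promoter windows (rat assembly GRCr8, 250 bases before to 50 bases after the start of the gene) matched 37 of the 48 members by symbol. The ISRE core, GAAA followed by any 2 bases and a second GAAA, searched on both strands, was found in 24 of the 37 (64.9%), and in 1034 of all 27457 promoters (3.77%). The GAS core TTCNNNGAA, which reads the same on both strands apart from the N letters, was in 7 of 37 (18.9%) against 8.68% of all promoters. Of the 7 antigen processing promoters 6 (85.7%) held an ISRE core. Sequences run 5′ to 3′ along the gene's strand and end before the start site, capitals mark the ISRE core or overlapping cores, and a core on the opposite strand appears as TTTC, any 2 bases and TTTC.
Oas1a, chr12:41330411-41330460, plus strand: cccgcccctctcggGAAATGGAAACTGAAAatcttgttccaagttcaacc
Irf7, chr1:205800063-205800112, minus strand: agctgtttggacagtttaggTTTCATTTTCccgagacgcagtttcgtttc
Ifi27, chr6:128355208-128355257, plus strand: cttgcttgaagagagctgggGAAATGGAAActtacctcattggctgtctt
Gbp2, chr2:234005676-234005725, plus strand: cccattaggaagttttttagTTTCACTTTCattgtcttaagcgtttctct
Rsad2, chr6:48788238-48788287, minus strand: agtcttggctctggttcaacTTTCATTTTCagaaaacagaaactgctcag
Parp14, chr11:78408038-78408087, plus strand: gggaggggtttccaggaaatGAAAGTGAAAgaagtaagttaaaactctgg
Lgals3bp, chr10:104127869-104127918, minus strand: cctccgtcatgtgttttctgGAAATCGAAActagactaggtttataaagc
Psmb10, chr19:50743293-50743329, minus strand: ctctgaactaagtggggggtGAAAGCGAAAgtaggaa
Tap1, chr20:4668635-4668684, minus strand: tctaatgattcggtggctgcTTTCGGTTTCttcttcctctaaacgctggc
Tap2, chr20:4652308-4652357, minus strand: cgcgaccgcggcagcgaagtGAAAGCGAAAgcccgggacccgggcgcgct
Tapbp, chr20:4967878-4967917, minus strand: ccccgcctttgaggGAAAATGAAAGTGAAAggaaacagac
B2m, chr3:129549160-129549209, plus strand: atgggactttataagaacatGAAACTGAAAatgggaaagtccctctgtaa
A match describes the letters and is not evidence of binding in these cells. An ISRE core was in 11 of 19 matched members (57.9%) whose 4 untreated knockout libraries were all highest and in 12 of 17 other measured members (70.6%). It was also in 10 of 14 matched members (71.4%) whose 2 treated wild-type libraries were both lowest.

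The members fell into a few level patterns across the 12 libraries. In 25 of 47 members, all 4 untreated knockout libraries lay above the other 8, a pattern held by 20.3% of the tested genes. In 17 of 47, both treated wild-type libraries lay below the other 10, a pattern held by 15.4% of the tested genes, and 9 members showed both. The 9 were Eif2ak2, Gbp2, Ifi44, Ifit3, Irf9, Mx1, Trim21, Uba7 and Zbp1. With median-ratio scaling the counts were 23 (18.4% of tested genes) and 17 (21.2%), and with quantile normalization 31 (23%) and 17 (22.4%). Without both treated libraries labelled Tnfrsf1α-/-, they were 28 (36.7%) and 25 (19.1%). The members' median rank among the tested genes, as a percentile of each library, was 45.4 and 46.2 in treated wild type, 57.1 to 66.6 in untreated wild type and the treated knockouts, and 80.1 to 82.4 in the untreated knockouts. The first 2 principal components of the members held 66.8% and 21.9% of their variance.

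**Figure D1:**
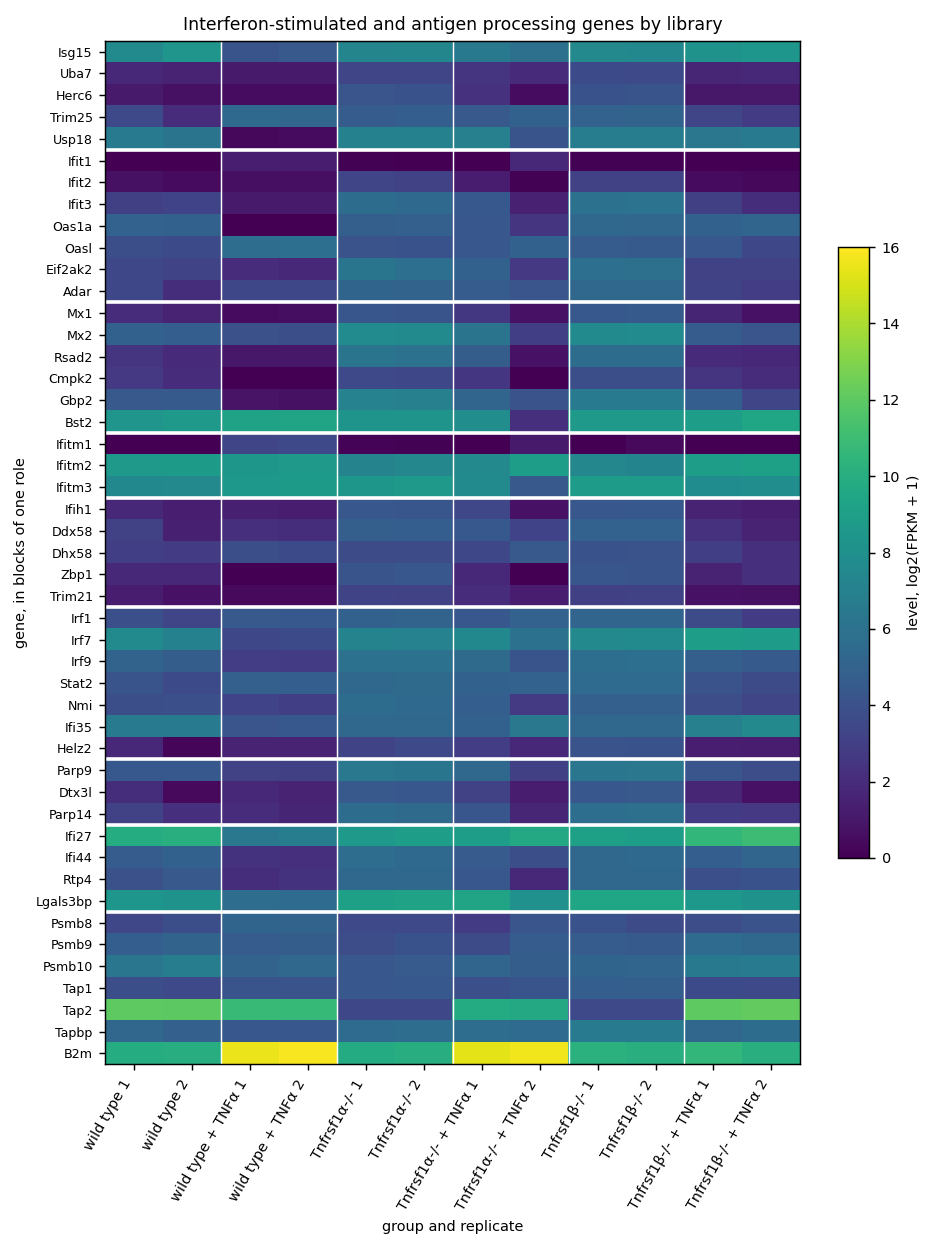
Level of each of the 47 measured members (rows, in blocks of one role) in each of the 12 libraries (columns, by group and replicate), with colour for log2(FPKM + 1). B2m stood near 15 to 16 in 4 libraries, Tap2 was about 3.5 in the 4 untreated knockout libraries, and Usp18, Oas1a, Cmpk2 and Zbp1 stood below 0.5 in both treated wild-type libraries.

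In treated against untreated wild type, a set of interferon-stimulated genes was lower and B2m, the light chain of MHC class I, was higher. The treated wild-type libraries also had the high hepatocyte marker sums and the low mesenchymal marker median given above. An effect of TNFα cannot be told apart from these marker differences here. Usp18, the protease that removes ISG15 and restrains interferon receptor signalling, stood at 6.61 and 6.19 in untreated and 0.36 and 0.47 in treated wild type and fell by 5.98 (SE 0.70, adjusted p = 1.69e-04). Isg15, a ubiquitin-like protein conjugated to other proteins, went from 7.67 and 8.36 to 4.15 and 4.48 and fell by 3.70 (SE 0.27, adjusted p = 6.91e-06). Irf7, the master factor of type I interferon induction, went from 7.62 and 7.01 to 3.48 and 3.59 and fell by 3.78 (SE 0.41, adjusted p = 1.00e-04). Oas1a, the 2-5A synthetase that switches on RNase L, had levels of 5.06 and 5.0 before treatment and was listed at 0 after it in both libraries. In each of these 4 genes the treated and untreated libraries did not overlap. This was common, since of the 11860 tested genes 5880 had both treated libraries above both untreated ones and 3598 had them below.

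Of the 46 tested members 6 rose and 16 fell with TNFα in wild type, where 31.9% of all tested genes rose and 15.3% fell. The members' median difference was -0.77, against 0.32 over all tested genes. With median-ratio scaling 5 rose and 22 fell, and with quantile normalization 4 rose and 21 fell. Gbp2, an interferon-inducible GTPase, went from 4.45 and 4.52 to 0.82 and 0.73 and fell by 3.71 (SE 0.47, adjusted p = 2.74e-04). Ifi27, a mitochondrial protein, went from 9.91 and 10.04 to 6.38 and 6.74 and fell by 3.42 (SE 0.25, adjusted p = 6.86e-06). Lgals3bp, a secreted galectin-binding protein, fell by 2.64 (SE 0.35, adjusted p = 4.10e-04), and Ifi44 fell by 2.52 (SE 0.29, adjusted p = 1.58e-04). Irf9, the DNA-binding subunit of the ISRE complex, fell by 2.07 (SE 0.38, adjusted p = 0.00237). B2m rose by 5.77 (SE 0.24, adjusted p = 1.19e-07), from 9.90 and 9.95 to 15.54 and 15.85. Trim25, the ubiquitin ligase of the RIG-I pathway, rose by 2.61 (SE 0.44, adjusted p = 0.00158), and Oasl, an OAS-like protein, by 2.05 (SE 0.31, adjusted p = 8.90e-04). Ifitm1, which restricts virus entry, was listed at 0 in untreated cells of both replicates and had levels of 3.36 and 3.52 with TNFα. It passed the filter on low values only through these treated libraries. Leaving out both treated libraries labelled Tnfrsf1α-/- raised the number of called members to 37. The share of all tested genes called under an alternative is not set beside such counts, here or below. These counts therefore show only how far a number moved and are no result about the members.

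**Figure D2:**
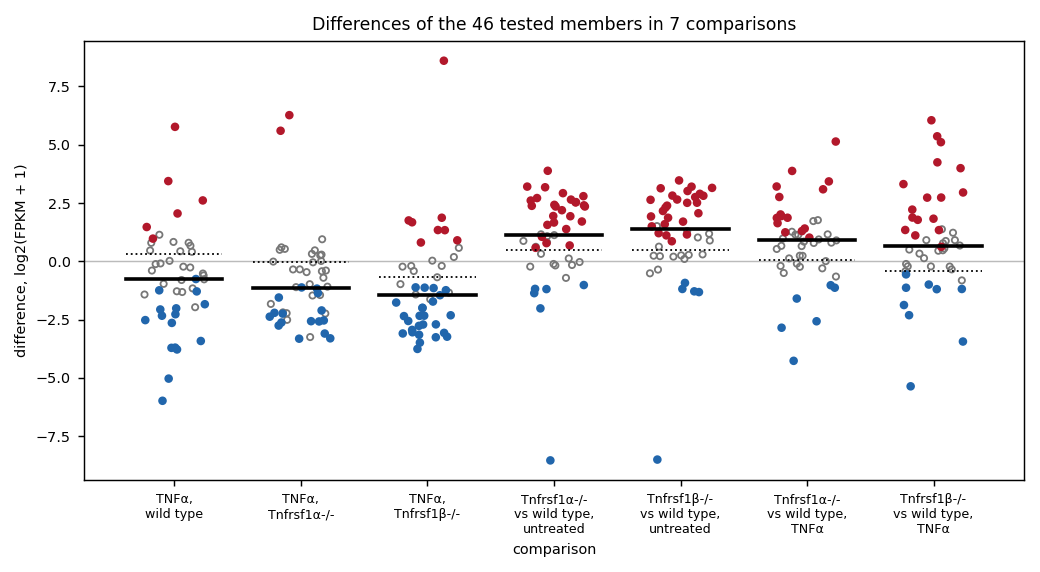
Difference of the 46 tested members on the log2(FPKM + 1) scale (y axis) in 7 two-group comparisons (x axis), with filled points for called members (red higher, blue lower), open points for the rest, a solid bar for the members' median and a dotted line for the median of all tested genes. The members' median lay below that of all genes for TNFα in each genotype and above it in the 4 comparisons of a knockout label with wild type.

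Without TNFα, more members were called higher than lower in both knockout labels against wild type. Herc6, a ligase that attaches ISG15 in mouse cells, stood at 1.15 and 0.74 in wild type, 4.24 and 4.06 in the libraries labelled Tnfrsf1α-/- and 4.03 and 4.15 in those labelled Tnfrsf1β-/-. The difference was 3.20 (SE 0.47, adjusted p = 8.91e-04) and 3.15 (SE 0.47, adjusted p = 9.81e-04). Dtx3l, a ubiquitin ligase that partners PARP9, was at 2.10 and 0.41 in wild type and at 4.49 and 4.37 and 4.33 and 4.44 in the 2 knockout labels, a difference of 3.18 (SE 0.68, adjusted p = 0.00487) and 3.13 (SE 0.68, adjusted p = 0.00524). The 2 wild-type libraries were apart from each other for Dtx3l, but both lay below all 4 knockout libraries. Tap2, a subunit of the peptide transporter, went the other way, from 12.03 and 11.99 in wild type to 3.45 and 3.50 and 3.50 and 3.51, a difference of -8.54 (SE 0.15, adjusted p = 6.36e-09) and -8.50 (SE 0.15, adjusted p = 8.86e-09). The same 4 libraries carry the low total FPKM and the marker differences given above. For Tap2 and for the other members, an effect of genotype cannot be told apart here from these or from a difference in quantification.

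In the untreated libraries labelled Tnfrsf1α-/- 26 of 46 members were higher and 6 lower than wild type, against 36.7% and 17% of all tested genes, with a median of 1.14 against 0.48. In those labelled Tnfrsf1β-/- 26 were higher and 5 lower, against 36.9% and 17.5%, with a median of 1.40 against 0.47. Both comparisons use the same 2 wild-type libraries, so they are not independent of each other. Median-ratio scaling brought the median of all genes from 0.48 and 0.47 to 0.03 and 0.03, and left 19 higher and 7 lower for Tnfrsf1α-/- and 22 and 6 for Tnfrsf1β-/-. Parp14 differed by 3.20 (SE 0.69, adjusted p = 0.00511) in Tnfrsf1β-/- and Eif2ak2 (the RNA-activated kinase PKR) by 2.65 (SE 0.60, adjusted p = 0.00615) in Tnfrsf1α-/-. Ifit2, an antiviral RNA-binding protein, was at 0.72 and 0.49 in wild type and 3.31 and 3.11 in Tnfrsf1α-/-. Ifit2 passed the filter on low values only through the untreated knockout libraries, so its call there is no support. Stat2 was higher by 1.56 (SE 0.23, adjusted p = 9.99e-04) and 1.70 (SE 0.23, adjusted p = 7.34e-04). Psmb10, an immunoproteasome subunit, was lower in both, with differences of -2.02 (SE 0.23, adjusted p = 3.46e-04) and -1.29 (SE 0.23, adjusted p = 0.00219). Ifi27 was called lower in both labels, at -1.19 and -0.93, but with quantile normalization stood at 0.30, not called, and at 0.79, which was a call in the opposite direction (adjusted p = 0.00792). Without wild-type replicate 2 the count of called members was 17 for Tnfrsf1α-/- and 20 for Tnfrsf1β-/-, and without untreated Tnfrsf1α-/- replicate 1 it was 19 for that label.

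**Figure D3:**
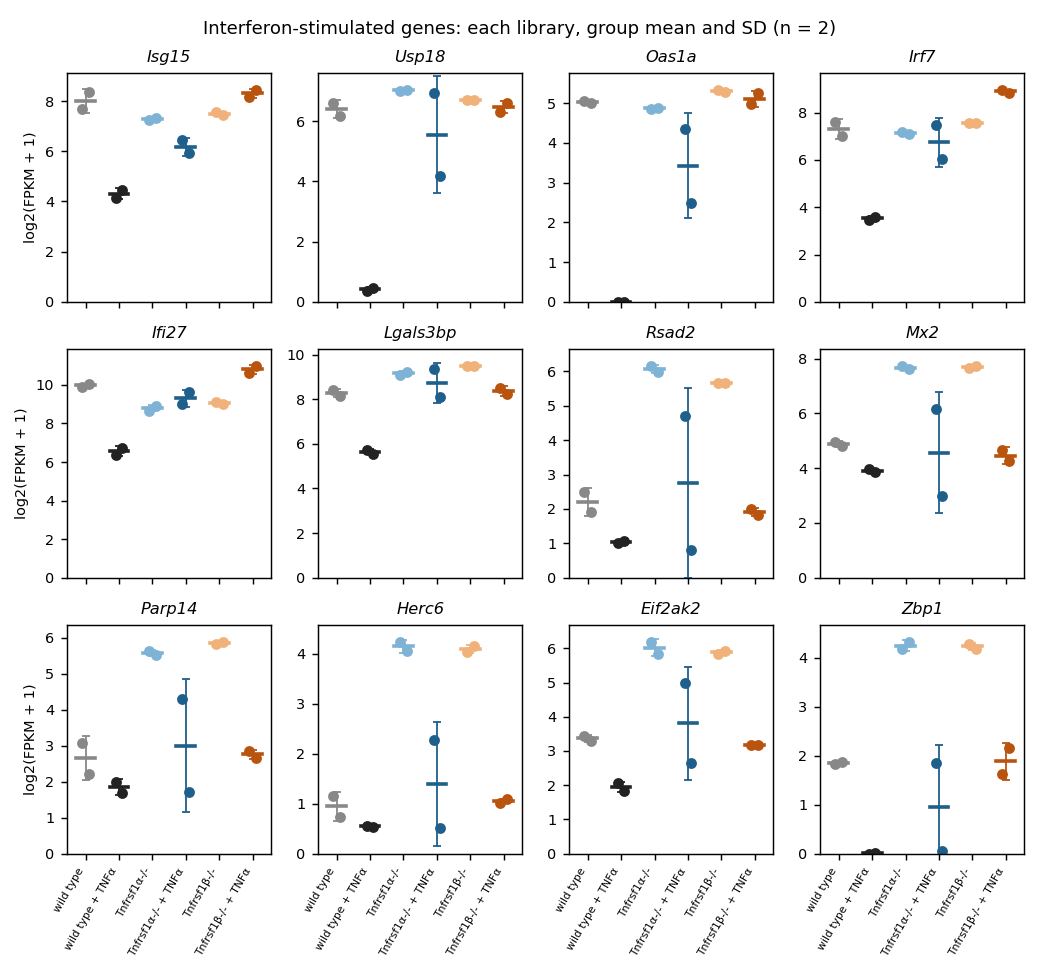
Level of 12 interferon-stimulated members in each library (points), with the group mean (line) and SD (bar, n = 2), by group on the x axis and log2(FPKM + 1) on the y axis. Isg15, Usp18, Oas1a, Irf7 and Ifi27 were lowest in treated wild type, and Rsad2, Mx2, Parp14 and Herc6 were highest in the 4 untreated knockout libraries.

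In both knockout labels more members were called lower than higher in treated against untreated libraries. The untreated libraries of these labels had the low total FPKM and low progenitor marker sums given above. An effect of TNFα cannot be told apart from these differences here. In the libraries labelled Tnfrsf1β-/- 8 of 46 rose and 26 fell, against 17.6% and 42.9% of all tested genes, with a median of -1.44 against -0.66. Median-ratio scaling gave 9 and 20, and quantile normalization 4 and 27. Mx1, a dynamin-like antiviral GTPase, went from 4.42 and 4.54 to 1.65 and 0.80 and fell by 3.26 (SE 0.53, adjusted p = 0.00119). Parp14 went from 5.81 and 5.88 to 2.84 and 2.66 and fell by 3.09 (SE 0.69, adjusted p = 0.00506). Dtx3l fell by 3.15 (SE 0.68, adjusted p = 0.00435), Ddx58 (the RNA sensor RIG-I) fell by 3.07 (SE 0.56, adjusted p = 0.00192), and Ifit3 fell by 3.49 (SE 0.76, adjusted p = 0.00442). Treated and untreated libraries of this label did not overlap in any of these genes. Of the 11860 tested genes, 7231 had both treated libraries below both untreated ones and 3152 had them above. Tap2 rose by 8.60 (SE 0.15, adjusted p = 8.30e-09) from the low level of the untreated libraries described above, Ifi35 by 1.87 (SE 0.40, adjusted p = 0.00394) and Psmb10 by 1.34 (SE 0.23, adjusted p = 0.00153). Isg15, Irf7 and Ifi27 were called higher, at 0.81, 1.34 and 1.75, but with quantile normalization stood at -0.54, -0.05 and -0.13.

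In the libraries labelled Tnfrsf1α-/- 2 members rose with TNFα and 16 fell, against 9.81% and 7.5% of all tested genes, with a median of -1.15 against -0.02. Tap2 rose by 6.27 (SE 0.15, adjusted p = 1.25e-08), from 3.45 and 3.50 to 9.84 and 9.64, and B2m rose by 5.60 (SE 0.24, adjusted p = 3.13e-07), from 9.82 and 9.97 to 15.32 and 15.67. The 16 that fell rested on treated libraries that differ from each other. Bst2, a membrane protein that tethers budding virus, was at 7.85 and 2.20 in the 2 treated replicates and was not called. Rsad2 (viperin, a radical SAM enzyme) was at 4.72 and 0.80, and its call, a difference of -3.32 (SE 0.98, adjusted p = 0.0497), was lost under 14 of 19 alternatives. A fit of these 2 groups alone called 2 members, Tap2 and B2m. Without treated replicate 1, 38 members were called (9 higher and 29 lower), and without either untreated replicate of this label 6 were. The count was 11 without either treated wild-type library, 10 without either untreated Tnfrsf1β-/- library and 32 with quantile normalization (2 higher and 30 lower).

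The difference between genotypes in the response to TNFα was tested as an interaction. For Tnfrsf1α-/- minus wild type 9 members were higher and 7 lower, against 12.8% and 22% (34.8% in all) of the tested genes, with a median of -0.79 against -0.44. For Tnfrsf1β-/- minus wild type 12 were higher and 18 lower, against 17.3% and 47.3% (64.5% in all), with a median of -1.36 against -1.11. Both use the same wild-type libraries. The limits on TNFα effects given above for wild type and for the knockout labels hold here too. The response of Tap2 was higher than in wild type by 7.51 (SE 0.21, adjusted p = 4.19e-08) in Tnfrsf1α-/- and by 9.85 (SE 0.21, adjusted p = 1.82e-08) in Tnfrsf1β-/-, and both values rest on the levels near 3.5 in the untreated knockouts, the libraries with the low total FPKM. That of Ifi27 was higher by 3.95 (SE 0.35, adjusted p = 4.44e-05) and 5.17 (SE 0.35, adjusted p = 4.89e-06), of Irf7 by 3.39 (SE 0.58, adjusted p = 0.00262) and 5.12 (SE 0.58, adjusted p = 1.26e-04), and of Isg15 by 2.58 (SE 0.38, adjusted p = 0.00121) and 4.51 (SE 0.38, adjusted p = 2.13e-05). B2m responded less in Tnfrsf1β-/-, with a difference of -5.58 (SE 0.34, adjusted p = 2.20e-06), and its difference in Tnfrsf1α-/- was -0.17 and not called. With median-ratio scaling 13 were higher and 5 lower for Tnfrsf1α-/- and 15 and 13 for Tnfrsf1β-/-. Without treated Tnfrsf1α-/- replicate 1 the first count was 36 members, and without replicate 2 it was 26.

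With TNFα present, the libraries labelled Tnfrsf1α-/- had 15 members higher and 6 lower than treated wild type, against 22.7% and 22.4% of all tested genes, with a median of 0.92 against 0.08. Those labelled Tnfrsf1β-/- had 17 higher and 9 lower, against 14.7% and 36.3%, with a median of 0.65 against -0.41. An effect of genotype cannot be told apart here from the marker differences of treated wild type given above. Median-ratio scaling gave 20 and 4 for Tnfrsf1β-/-, and quantile normalization 21 and 4. Irf7 was at 7.47 and 6.02 in Tnfrsf1α-/- and 8.95 and 8.85 in Tnfrsf1β-/-, higher by 3.21 (SE 0.41, adjusted p = 3.55e-04) and 5.36 (SE 0.41, adjusted p = 8.74e-06) than in treated wild type. Gbp2 was higher by 3.88 (SE 0.47, adjusted p = 2.58e-04) and 3.31 (SE 0.47, adjusted p = 5.01e-04), and Ifi44 by 1.94 (SE 0.29, adjusted p = 8.95e-04) and 2.73 (SE 0.29, adjusted p = 9.00e-05). Oas1a, listed at 0 in treated wild type, was at 4.36 and 2.49 and 4.97 and 5.25. B2m was at 10.61 and 10.05 in Tnfrsf1β-/-, a difference of -5.36 (SE 0.24, adjusted p = 1.99e-07), while in Tnfrsf1α-/- its difference was -0.20 and not called. Tap1 was called lower in Tnfrsf1β-/-, at -0.56, but stood at 0.11 with median-ratio scaling and 0.13 with quantile normalization. A fit of the treated Tnfrsf1α-/- and wild-type groups alone called 9 members, 38 were called without treated Tnfrsf1α-/- replicate 2, and the count for Tnfrsf1β-/- was 17 without its treated replicate 2.

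The ISG15 conjugation system has 5 members, the modifier Isg15, its activating enzyme Uba7, the ligases Herc6 and Trim25, and the protease Usp18. Isg15 stood at 7.67 and 8.36 in wild type, 7.27 and 7.34 in libraries labelled Tnfrsf1α-/- and 7.55 and 7.45 in those labelled Tnfrsf1β-/- without TNFα. With TNFα it was at 4.15 and 4.48 in wild type, 6.44 and 5.92 in libraries labelled Tnfrsf1α-/- and 8.18 and 8.44 in those labelled Tnfrsf1β-/-. Treated wild type was its lowest group, treated Tnfrsf1β-/- reached the level of untreated wild type, and treated Tnfrsf1α-/- lay between them. Usp18 stood at 6.61 and 6.19 in wild type, 7.01 and 7.03 in libraries labelled Tnfrsf1α-/- and 6.70 and 6.69 in those labelled Tnfrsf1β-/- without TNFα, and with TNFα at 0.36 and 0.47 in wild type, 6.94 and 4.17 in libraries labelled Tnfrsf1α-/- and 6.32 and 6.62 in those labelled Tnfrsf1β-/-. Uba7, at 1.14 to 1.82 in wild type, was at 3.34 to 3.57 in the untreated knockouts. Trim25 went against the others, at 5.46 and 5.29 in treated wild type and 3.36 and 2.77 in treated Tnfrsf1β-/-, and it was called higher in both untreated knockouts.

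The IFIT and OAS group holds RNA-binding effectors and enzymes that act on viral RNA. Ifit3, which stabilises the IFIT complex on RNA, was at 3.04 and 3.23 in wild type, 5.64 and 5.47 in libraries labelled Tnfrsf1α-/- and 5.98 and 6.08 in those labelled Tnfrsf1β-/- without TNFα. With TNFα it was at 1.14 and 1.19 in wild type, 4.38 and 1.49 in libraries labelled Tnfrsf1α-/- and 3.01 and 2.07 in those labelled Tnfrsf1β-/-. The treated Tnfrsf1α-/- replicates were far apart and those of treated wild type lowest. Eif2ak2 was at 3.44 and 3.30 in wild type, 6.19 and 5.84 in libraries labelled Tnfrsf1α-/- and 5.84 and 5.93 in those labelled Tnfrsf1β-/- without TNFα, and with TNFα at 2.06 and 1.84 in wild type, 4.98 and 2.64 in libraries labelled Tnfrsf1α-/- and 3.18 and 3.17 in those labelled Tnfrsf1β-/-. In 4 of the 6 tested members of this group the untreated libraries labelled Tnfrsf1α-/- were called higher than wild type, and in 5 those labelled Tnfrsf1β-/-, against 36.7% and 36.9% of all tested genes. Both counts include Ifit2, which passed the filter on low values only through these untreated knockout libraries, so its calls are no support. Oas1a was at 5.06 and 5.0 in wild type, 4.87 and 4.88 in libraries labelled Tnfrsf1α-/- and 5.33 and 5.28 in those labelled Tnfrsf1β-/- without TNFα, and with TNFα at 0 and 0 in wild type, 4.36 and 2.49 in libraries labelled Tnfrsf1α-/- and 4.97 and 5.25 in those labelled Tnfrsf1β-/-. Apart from treated wild type, where both values are listed 0, only treated Tnfrsf1α-/- replicate 2 lay below 4 for this gene. Oasl was at 3.85 and 3.62 in wild type, 4.09 and 4.02 in libraries labelled Tnfrsf1α-/- and 4.63 and 4.56 in those labelled Tnfrsf1β-/- without TNFα, and with TNFα at 5.70 and 5.87 in wild type, 4.32 and 4.99 in libraries labelled Tnfrsf1α-/- and 4.34 and 3.49 in those labelled Tnfrsf1β-/-, so that its 2 highest libraries were those of treated wild type. Adar, which edits adenosine in double-stranded RNA, was at 2.11 and 3.46 in untreated wild type and 5.12 to 5.44 in the untreated knockouts. Ifit1 was at or below 0.11 in 9 libraries and at 1.33 and 1.23 in treated wild type and 1.83 in treated Tnfrsf1α-/- replicate 2.

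The Mx, viperin and GBP group holds proteins that block steps of virus growth. Mx2, a paralogue of Mx1, was at 4.96 and 4.79 in wild type, 7.72 and 7.61 in libraries labelled Tnfrsf1α-/- and 7.65 and 7.73 in those labelled Tnfrsf1β-/- without TNFα, and with TNFα at 3.96 and 3.86 in wild type, 6.14 and 3.0 in libraries labelled Tnfrsf1α-/- and 4.67 and 4.25 in those labelled Tnfrsf1β-/-. Rsad2 was at 2.48 and 1.91 in wild type, 6.16 and 6.0 in libraries labelled Tnfrsf1α-/- and 5.65 and 5.68 in those labelled Tnfrsf1β-/- without TNFα, and with TNFα at 1.01 and 1.06 in wild type, 4.72 and 0.80 in libraries labelled Tnfrsf1α-/- and 1.99 and 1.83 in those labelled Tnfrsf1β-/-. Both were highest in the 4 untreated knockouts. Gbp2 was at 4.45 and 4.52 in wild type, 7.10 and 6.95 in libraries labelled Tnfrsf1α-/- and 6.60 and 6.69 in those labelled Tnfrsf1β-/- without TNFα, and with TNFα at 0.82 and 0.73 in wild type, 5.19 and 4.11 in libraries labelled Tnfrsf1α-/- and 4.81 and 3.36 in those labelled Tnfrsf1β-/-. It was highest in the same 4 libraries and below 1 in treated wild type. Of the 6 members 4 were called higher in each untreated knockout, against 36.7% and 36.9% of all tested genes, and 4 were called lower with TNFα in each knockout label, against 7.5% in Tnfrsf1α-/- and 42.9% in Tnfrsf1β-/-. Cmpk2, a mitochondrial nucleotide kinase, was listed at 0 in both treated wild-type libraries and in treated Tnfrsf1α-/- replicate 2, so no fold is given for it. Bst2 stood between 7.85 and 9.46 in 11 libraries and at 2.20 in treated Tnfrsf1α-/- replicate 2, and it did not follow the other members. The IFITM proteins, which block fusion of virus with the cell membrane, also did not: Ifitm2 was at 7.14 to 7.42 in the untreated knockouts against 8.57 and 8.71 in untreated wild type, and Ifitm3 was at 7.45 and 7.53 in untreated wild type and 8.45 to 8.82 in the untreated knockouts without a call.

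Of the 5 sensors of RNA and nucleic acid, 4 had all 4 untreated knockout libraries above the other 8, and Dhx58 did not. That pattern was held by 20.3% of all tested genes. Ifih1 (MDA5) was at 1.86 and 1.32 in wild type, 4.34 and 4.27 in libraries labelled Tnfrsf1α-/- and 4.37 and 4.44 in those labelled Tnfrsf1β-/- without TNFα, and Ddx58 was at 3.10 and 1.43 in wild type, 4.83 and 4.76 in libraries labelled Tnfrsf1α-/- and 5.02 and 5.02 in those labelled Tnfrsf1β-/- without TNFα. With TNFα Ddx58 was at 2.25 and 2.11 in wild type, 4.43 and 3.20 in libraries labelled Tnfrsf1α-/- and 2.28 and 1.62 in those labelled Tnfrsf1β-/-. Trim21, a cytosolic antibody receptor and ubiquitin ligase, was at 1.28 and 0.79 in wild type, 3.26 and 3.18 in libraries labelled Tnfrsf1α-/- and 3.05 and 3.14 in those labelled Tnfrsf1β-/- without TNFα, and with TNFα at 0.42 and 0.43 in wild type, 2.04 and 1.30 in libraries labelled Tnfrsf1α-/- and 0.76 and 0.74 in those labelled Tnfrsf1β-/-. Zbp1, which senses Z-form nucleic acid, was at 1.84 and 1.86 in untreated wild type and 4.17 to 4.33 in the untreated knockouts, and it was at or below 0.02 in treated wild type. All 5 members of this group were called higher in untreated Tnfrsf1β-/- and 4 in untreated Tnfrsf1α-/-, where 36.9% and 36.7% of all tested genes were. All 5 fell with TNFα in Tnfrsf1β-/-, as did 42.9% of all tested genes. Dhx58 (LGP2) was at 2.97 and 2.82 in untreated wild type, 3.70 and 3.72 in untreated Tnfrsf1α-/- without a call, and 4.03 and 4.08 in untreated Tnfrsf1β-/-, and the difference between the 2 labels was not tested. With TNFα Dhx58 was at 3.85 and 3.61 in wild type, 3.46 and 4.47 in libraries labelled Tnfrsf1α-/- and 2.94 and 2.25 in those labelled Tnfrsf1β-/-, so that treated Tnfrsf1α-/- replicate 2 was its highest library.

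The transcription factors did not move together. Irf1, a factor that TNFα can induce in many cells, was at 3.93 and 3.36 in wild type, 4.96 and 5.10 in libraries labelled Tnfrsf1α-/- and 5.24 and 5.24 in those labelled Tnfrsf1β-/- without TNFα, and with TNFα at 4.49 and 4.39 in wild type, 4.32 and 5.04 in libraries labelled Tnfrsf1α-/- and 3.71 and 2.78 in those labelled Tnfrsf1β-/-. It was not called for TNFα in wild type, where the difference was 0.80. Stat2 was at 4.18 and 3.59 in wild type, 5.39 and 5.51 in libraries labelled Tnfrsf1α-/- and 5.60 and 5.58 in those labelled Tnfrsf1β-/- without TNFα, and with TNFα at 4.92 and 4.80 in wild type, 4.95 and 5.02 in libraries labelled Tnfrsf1α-/- and 4.07 and 3.66 in those labelled Tnfrsf1β-/-. Its rise with TNFα in wild type was 0.97 (SE 0.23, adjusted p = 0.00929), a call lost with quantile normalization and without treated wild-type replicate 1 (adjusted p up to 0.0849 over the alternatives). Irf9 was at 5.07 and 4.75 in wild type, 5.96 and 5.96 in libraries labelled Tnfrsf1α-/- and 5.76 and 5.84 in those labelled Tnfrsf1β-/- without TNFα, and with TNFα at 2.88 and 2.80 in wild type, 5.53 and 4.18 in libraries labelled Tnfrsf1α-/- and 4.83 and 4.51 in those labelled Tnfrsf1β-/-. Irf9 was called lower with TNFα in wild type. Irf7 was at 7.62 and 7.01 in wild type, 7.18 and 7.10 in libraries labelled Tnfrsf1α-/- and 7.54 and 7.57 in those labelled Tnfrsf1β-/- without TNFα, and with TNFα at 3.48 and 3.59 in wild type, 7.47 and 6.02 in libraries labelled Tnfrsf1α-/- and 8.95 and 8.85 in those labelled Tnfrsf1β-/-. It showed no difference called between untreated groups, and its highest libraries were those of treated Tnfrsf1β-/-. Helz2, a nuclear receptor coactivator, was at 1.82 and 0.31 in wild type, 3.28 and 3.55 in libraries labelled Tnfrsf1α-/- and 4.11 and 4.05 in those labelled Tnfrsf1β-/- without TNFα, and with TNFα at 1.56 and 1.5 in wild type, 2.89 and 1.76 in libraries labelled Tnfrsf1α-/- and 1.31 and 1.31 in those labelled Tnfrsf1β-/-. Its 2 untreated wild-type libraries were far apart. Nmi and Ifi35, which bind each other, differed: in untreated libraries labelled Tnfrsf1α-/-, Nmi was called higher and Ifi35 lower. The Ifi35 call was lost under 9 of 20 alternatives, quantile normalization among them.

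The PARP9, DTX3L and PARP14 trio, of which the first 2 form a complex that modifies histones, was called higher in both untreated knockouts for all 3 genes, where 36.7% and 36.9% of all tested genes were. Parp9 was at 4.38 and 4.43 in wild type, 6.43 and 6.24 in libraries labelled Tnfrsf1α-/- and 6.29 and 6.37 in those labelled Tnfrsf1β-/- without TNFα, and with TNFα at 3.16 and 3.01 in wild type, 5.43 and 3.03 in libraries labelled Tnfrsf1α-/- and 4.23 and 3.76 in those labelled Tnfrsf1β-/-. Parp14 was at 3.08 and 2.21 in wild type, 5.63 and 5.51 in libraries labelled Tnfrsf1α-/- and 5.81 and 5.88 in those labelled Tnfrsf1β-/- without TNFα, and with TNFα at 2.0 and 1.69 in wild type, 4.30 and 1.70 in libraries labelled Tnfrsf1α-/- and 2.84 and 2.66 in those labelled Tnfrsf1β-/-. In both genes the untreated knockouts lay above every other library, and treated Tnfrsf1α-/- replicate 1 came next.

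Of the remaining interferon-stimulated members, all 4 tested (Ifi27, Ifi44, Rtp4 and Lgals3bp) fell with TNFα in wild type, as did 15.3% of all tested genes. With TNFα present, 3 and 4 were higher in Tnfrsf1α-/- and Tnfrsf1β-/- than in wild type, against 22.7% and 14.7%. Lgals3bp was at 8.42 and 8.15 in wild type, 9.09 and 9.22 in libraries labelled Tnfrsf1α-/- and 9.49 and 9.49 in those labelled Tnfrsf1β-/- without TNFα, and with TNFα at 5.72 and 5.57 in wild type, 9.37 and 8.10 in libraries labelled Tnfrsf1α-/- and 8.52 and 8.23 in those labelled Tnfrsf1β-/-. The treated wild-type libraries were more than 2 units below all others for this gene. Ifi27 was at 9.91 and 10.04 in wild type, 8.67 and 8.89 in libraries labelled Tnfrsf1α-/- and 9.10 and 9.0 in those labelled Tnfrsf1β-/- without TNFα, and with TNFα at 6.38 and 6.74 in wild type, 9.0 and 9.63 in libraries labelled Tnfrsf1α-/- and 10.62 and 10.98 in those labelled Tnfrsf1β-/-, and Ifi44 was at 4.64 and 4.96 in wild type, 5.70 and 5.47 in libraries labelled Tnfrsf1α-/- and 5.40 and 5.46 in those labelled Tnfrsf1β-/- without TNFα, and with TNFα at 2.36 and 2.20 in wild type, 4.62 and 3.81 in libraries labelled Tnfrsf1α-/- and 4.80 and 5.23 in those labelled Tnfrsf1β-/-. Treated wild type was lowest for both, treated Tnfrsf1β-/- was highest for Ifi27, and the untreated knockouts were highest for Ifi44. Rtp4, a chaperone of G protein-coupled receptors, was at 5.33 to 5.40 in the untreated knockouts and at 4.47 or less elsewhere.

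The antigen processing members did not follow one pattern. B2m was at 9.90 and 9.95 in wild type, 9.82 and 9.97 in libraries labelled Tnfrsf1α-/- and 10.22 and 10.07 in those labelled Tnfrsf1β-/- without TNFα, and with TNFα at 15.54 and 15.85 in wild type, 15.32 and 15.67 in libraries labelled Tnfrsf1α-/- and 10.61 and 10.05 in those labelled Tnfrsf1β-/-. The 4 libraries of treated wild type and treated Tnfrsf1α-/- formed the high group, with 2.43% to 3.56% of all FPKM of the library in B2m alone, against 0.0801% to 0.263% in the others. Tap2 was at 12.03 and 11.99 in wild type, 3.45 and 3.50 in libraries labelled Tnfrsf1α-/- and 3.50 and 3.51 in those labelled Tnfrsf1β-/- without TNFα, and with TNFα at 10.82 and 10.71 in wild type, 9.84 and 9.64 in libraries labelled Tnfrsf1α-/- and 12.06 and 12.16 in those labelled Tnfrsf1β-/-. Its partner Tap1, which forms the transporter with it, stayed between 3.51 and 4.86, so that Tap2 minus Tap1 was 5.52 to 8.60 in 8 libraries and -1.34 to -0.90 in the 4 untreated knockouts. Tapbp (tapasin, which holds MHC class I at the transporter) was at 5.30 and 4.90 in wild type, 5.62 and 5.74 in libraries labelled Tnfrsf1α-/- and 6.63 and 6.57 in those labelled Tnfrsf1β-/- without TNFα, and with TNFα at 4.34 and 4.35 in wild type, 5.69 and 5.59 in libraries labelled Tnfrsf1α-/- and 5.25 and 5.66 in those labelled Tnfrsf1β-/-. It was higher in untreated Tnfrsf1β-/- by 1.5 (SE 0.20, adjusted p = 7.14e-04) and in treated Tnfrsf1α-/- and Tnfrsf1β-/- by 1.30 (SE 0.20, adjusted p = 0.00119) and 1.11 (SE 0.20, adjusted p = 0.00223).

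**Figure D4:**
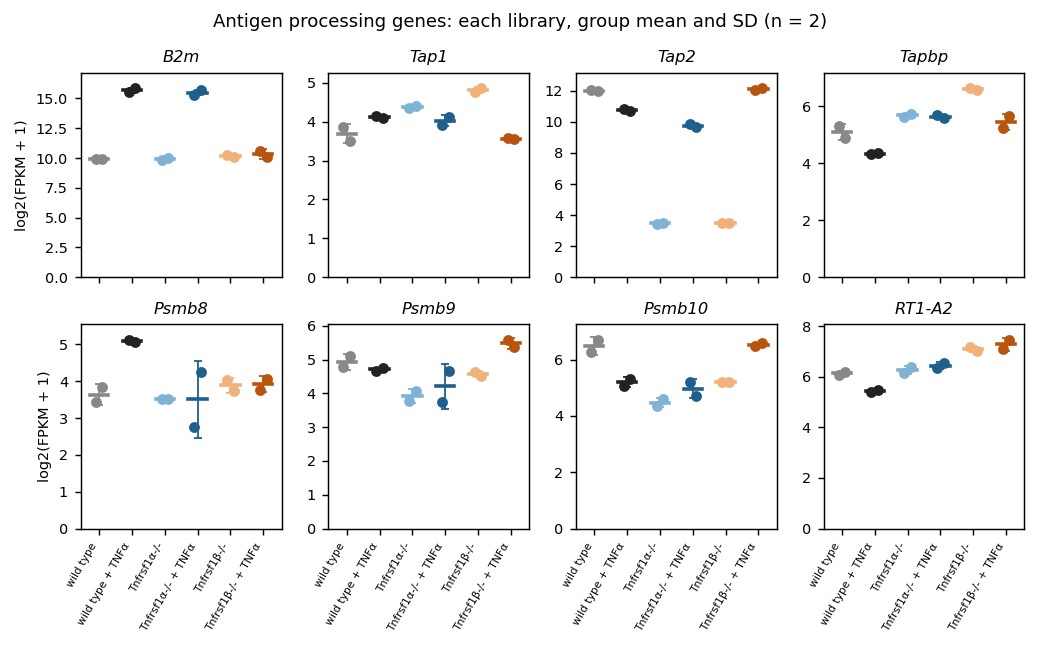
Level of 7 antigen processing members and the class I gene RT1-A2 in each library (points), with the group mean (line) and SD (bar, n = 2), by group on the x axis and log2(FPKM + 1) on the y axis. B2m was near 15.5 in treated wild type and treated Tnfrsf1α-/- libraries, and Tap2 was near 3.5 in the 4 untreated knockout libraries.

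The 3 immunoproteasome subunits replace Psmb5, Psmb6 and Psmb7 of the standard core. Psmb8 was at 3.43 and 3.84 in wild type, 3.52 and 3.52 in libraries labelled Tnfrsf1α-/- and 4.03 and 3.75 in those labelled Tnfrsf1β-/- without TNFα, and with TNFα at 5.13 and 5.08 in wild type, 2.77 and 4.25 in libraries labelled Tnfrsf1α-/- and 3.77 and 4.07 in those labelled Tnfrsf1β-/-. Its rise with TNFα in wild type was 1.47 (SE 0.42, adjusted p = 0.0194), a call lost under both scalings, without untreated replicate 1 and without either treated replicate of wild type (adjusted p up to 0.209 over the alternatives). Psmb9 was at 4.77 and 5.10 in wild type, 3.77 and 4.06 in libraries labelled Tnfrsf1α-/- and 4.63 and 4.52 in those labelled Tnfrsf1β-/- without TNFα, and with TNFα at 4.67 and 4.74 in wild type, 3.74 and 4.67 in libraries labelled Tnfrsf1α-/- and 5.59 and 5.37 in those labelled Tnfrsf1β-/-, with no difference called for TNFα in wild type (-0.23). Psmb10 was at 6.26 and 6.71 in wild type, 4.35 and 4.58 in libraries labelled Tnfrsf1α-/- and 5.19 and 5.21 in those labelled Tnfrsf1β-/- without TNFα, and with TNFα at 5.07 and 5.32 in wild type, 5.20 and 4.72 in libraries labelled Tnfrsf1α-/- and 6.49 and 6.57 in those labelled Tnfrsf1β-/-, and it fell by 1.29 (SE 0.23, adjusted p = 0.0021) in wild type. Within a library, Psmb8 minus Psmb5 was -4.61 and -4.56 in untreated wild type, -2.73 and -2.90 in untreated Tnfrsf1α-/- and -2.43 and -2.68 in untreated Tnfrsf1β-/-. Psmb9 against Psmb6 showed the same order of the 3 untreated groups, and Psmb10 against Psmb7 did not, with its lowest values in treated wild type. The standard subunits were lower in the untreated knockouts, 12 of 14 for Tnfrsf1α-/- and 13 of 14 for Tnfrsf1β-/-, against 17% and 17.5% of all tested genes. With TNFα in Tnfrsf1β-/- 13 of 14 rose, against 17.6%. Psmb6 differed by -2.78 (SE 0.32, adjusted p = 3.41e-04) and -2.69 (SE 0.32, adjusted p = 3.94e-04).

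**Figure D5:**
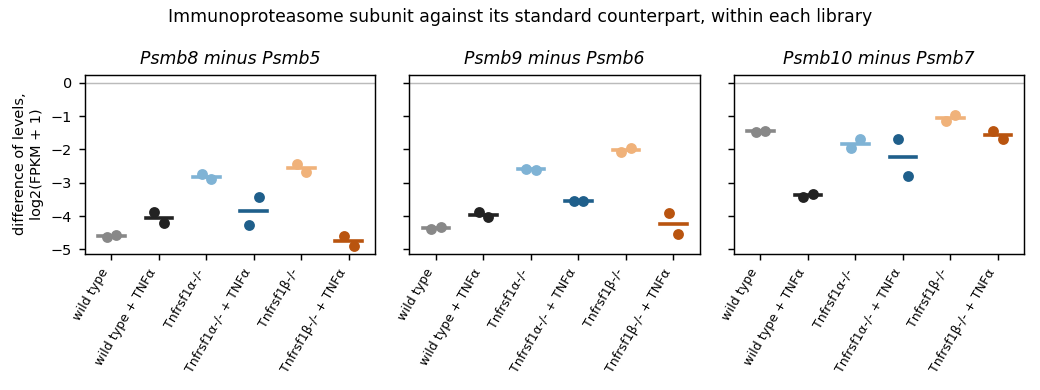
Difference in level between each immunoproteasome subunit and its standard counterpart within a library (points) and the group mean (line), by group on the x axis and log2(FPKM + 1) difference on the y axis. Psmb8 minus Psmb5 lay between -2.43 and -2.90 in the untreated knockouts and between -3.41 and -4.88 in the other libraries.

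Interferon genes themselves were at the bottom of the table. Ifnb1 did not exceed 0.38 in any library, and Ifng, Ifnl1 and Ifnl3 were listed at 0 in all 12, so their change was not tested. Of 19 tested receptor and signalling genes, 8 rose and 1 fell with TNFα in wild type, against 31.9% and 15.3% of all tested genes. In the untreated knockouts 13 (68.4%) were higher in Tnfrsf1α-/- and 10 (52.6%) in Tnfrsf1β-/- with none lower, against 36.7% and 36.9%, and 12 (63.2%) fell with TNFα in Tnfrsf1β-/-, against 42.9%. Irf3, which turns on the interferon beta gene after viral sensing, was at 5.04 and 5.20 in wild type, 5.62 and 5.64 in libraries labelled Tnfrsf1α-/- and 5.37 and 5.38 in those labelled Tnfrsf1β-/- without TNFα, and with TNFα at 10.51 and 10.92 in wild type, 9.95 and 10.25 in libraries labelled Tnfrsf1α-/- and 4.95 and 5.20 in those labelled Tnfrsf1β-/-, and it rose with TNFα by 5.60 (SE 0.20, adjusted p = 3.97e-08) in wild type and 4.48 (SE 0.20, adjusted p = 3.57e-07) in Tnfrsf1α-/-. Its high group was the same 4 libraries as that of B2m. Of 7 tested upstream sensing genes 5 fell with TNFα in Tnfrsf1β-/-, against 42.9% of all tested genes, and Ikbke, a kinase that phosphorylates IRF3, fell by 2.21 (SE 0.19, adjusted p = 8.25e-05).

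The class I heavy chains and their regulator were also followed, with the caution that RT1 genes are near-identical paralogues whose reads the quantification could share. Of 25 tested peptide loading and MHC genes 3 rose and 14 fell with TNFα in wild type, against 31.9% and 15.3% of all tested genes. With TNFα present, 16 were higher and 1 lower in Tnfrsf1α-/- than in wild type, against 22.7% and 22.4%, and 14 were higher and 3 lower in Tnfrsf1β-/-, against 14.7% and 36.3%. RT1-A1 was at 6.47 and 6.33 in wild type, 6.74 and 6.96 in libraries labelled Tnfrsf1α-/- and 7.29 and 7.40 in those labelled Tnfrsf1β-/- without TNFα, and with TNFα at 2.71 and 2.63 in wild type, 6.50 and 5.52 in libraries labelled Tnfrsf1α-/- and 7.45 and 7.83 in those labelled Tnfrsf1β-/-, and it fell by 3.73 (SE 0.30, adjusted p = 1.26e-05) in wild type. RT1-A2 was at 6.07 and 6.20 in wild type, 6.15 and 6.37 in libraries labelled Tnfrsf1α-/- and 7.17 and 6.99 in those labelled Tnfrsf1β-/- without TNFα, and with TNFα at 5.40 and 5.49 in wild type, 6.34 and 6.53 in libraries labelled Tnfrsf1α-/- and 7.10 and 7.46 in those labelled Tnfrsf1β-/-, and it fell by 0.69 (SE 0.19, adjusted p = 0.0157) in wild type. Both treated wild-type libraries were the lowest of the 12 for these 2 class I genes. Nlrc5, the transactivator of MHC class I genes, was at or below 0.79 in wild type and treated libraries and at 1.62 to 2.29 in the untreated knockouts. The differences from untreated wild type were 1.41 and 1.95. Nlrc5 passed the filter on low values only through the untreated knockouts, so its calls there are no support.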

How the data were processed

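Rat HPC libraries were made from total RNA with an Illumina TruSeq kit, per the labels' protocols. The authors deposited 1 table of log2 values with 22730 lines and 1 column per library. Aligner, annotation and genome build are not named by any source used here. The table does not name its scale. It was read as log2(FPKM + 1) because 2 to the power of a value, minus 1, fell on 6-decimal numbers for 74.7% to 81.7% of values between 0 and 0.5 per library, against 1.42% to 2.52% with a natural log (tolerance 0.01 of the last decimal). FPKM is a share of a library and keeps no depth, so no counting interval is given. Lines without a symbol (346) were left out.

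Genes with a mean of at least 1 FPKM were fitted on log2(FPKM + 1) with R 4.3.3 and limma 3.58.1, as a model of 6 group means over all 12 libraries with empirical Bayes moderation along the trend, 9 contrasts, two-sided p and Benjamini-Hochberg adjustment. The fit was also run on simulated data in which a gene had the same spread in all groups. The wider spread of the treated Tnfrsf1α-/- libraries was not simulated, so the run is no check of calls under that spread. Members and lists were chosen with earlier results of these data known. Any member may be named with its levels. Differences are given per contrast for at most the 10 largest called members in each direction, for a fixed set of 12 members, and for up to 5 genes of each pathway list with the smallest p. Genes named with a value outside this rule were chosen after their values were seen. Alternatives were a pseudocount of 0.1, no filter or a filter of 5 FPKM, median-ratio scaling, quantile normalization, only the groups compared, a replicate block, leaving out each library, leaving out both treated Tnfrsf1α-/- libraries and leaving out the 4 untreated knockout libraries. Pattern counts under scaling and without treated Tnfrsf1α-/- libraries were added after the data were seen. Values of 2 genes on these lists are not reported here.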

Additional observations from a re-analysis of the deposited data

Results flagged for a closer look

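The response to TNFα differed between a knockout label and wild type, by a test of the difference itself (limma, adjusted over all tested genes), for 16 members in Tnfrsf1α-/- and 30 in Tnfrsf1β-/-. These are 34.8% and 65.2% of the 46 tested members, and 34.8% and 64.5% of all tested genes were called, so the counts are at the background. In Tnfrsf1α-/- the differences in response on the log2(FPKM + 1) scale were 7.51 for Tap2, 4.52 for Usp18, 3.95 for Ifi27, -3.65 for Ifitm3, -2.97 for Ifitm1 and -2.60 for Ifit2. In Tnfrsf1β-/- they were 9.85 for Tap2, 5.75 for Usp18, 5.17 for Ifi27, -5.58 for B2m, -4.61 for Trim25 and -3.64 for Ifitm1. Ifitm1 was listed at 0 in both untreated wild-type libraries, so its value depends on the pseudocount and is no fold. Ifitm1 passed the filter on low values only through treated wild type, and Ifit2 only through the untreated knockouts, so their calls are no support. The values of Ifitm3 in Tnfrsf1α-/- rest on 2 treated libraries at 7.63 and 4.48, and its call was lost under 12 of 19 alternatives, with values from -5.22 to -2.07. The values of Tap2 rest on its levels near 3.5 in the 4 untreated knockout libraries, and whether these were quantified with the same annotation as the others is not given in the sources used here.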

How the results depend on the processing

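Among the gene-level results recomputed under the alternatives, 6708 kept direction and side of the threshold, 616 lost their call and 9 turned sign; the cause was not tested. With quantile normalization the values that turned were -0.13 for Ifi27, -0.051 for Irf7, -0.54 for Isg15 and 0.054 for Tmem173 with TNFα in Tnfrsf1β-/-, 0.30 and 0.79 for Ifi27 in untreated Tnfrsf1α-/- and Tnfrsf1β-/-, and 0.13 for Tap1 in treated Tnfrsf1β-/-. With median-ratio scaling they were 0.036 for Tmem173 and 0.11 for Tap1. Counts of called members under the alternatives are given without the share of all tested genes and show only how far a number moved. Without both treated Tnfrsf1α-/- libraries 37 members were called for TNFα in wild type. For TNFα in Tnfrsf1α-/- 32 were called with quantile normalization and 2 with only the groups compared, and for treated Tnfrsf1α-/- against wild type 9 with only the groups compared.

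Leaving out 1 library at a time gave 16 to 37 called members for TNFα in wild type, 6 to 38 in Tnfrsf1α-/- and 25 to 40 in Tnfrsf1β-/-. The range was 12 to 36 and 25 to 39 for the differences in response, 17 to 39 and 20 to 37 for untreated Tnfrsf1α-/- and Tnfrsf1β-/-, and 14 to 38 and 17 to 36 for the treated ones. With a replicate block the counts, in the order of the 9 comparisons above, were 24, 22, 36, 17, 31, 32, 30, 22 and 25. The gene-wise difference between replicates 1 and 2 was correlated between groups, with values of -0.169 to 0.244 over 15 pairs of groups. All pairs among untreated wild type and the treated groups were positive, at 0.149 to 0.236. All pairs with untreated Tnfrsf1β-/- were negative, at -0.169 to -0.075. The main fit did not take the replicate numbers to pair libraries, and what these correlations come from was not tested. Depth is unknown, and 2 libraries per group limit every comparison.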
